A study of Mus musculus with 12 samples.

Results

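The glucocorticoid receptor gene Nr3c1 and 9 genes known as its targets or as parts of its pathway were followed in the gonadal white fat of mice of the C57BL/6N strain. The 10 genes are Nr3c1, Hsd11b1, Fkbp5, Tsc22d3, Zbtb16, Sgk1, Dusp1, Klf9, Mt1 and Mt2. Each was taken by its symbol from the count tables deposited for 12 RNA sequencing libraries, and all 10 of the 32772 genes listed were found in both tables. The libraries form 4 groups of 3. Mice of the HFD PCN group had received a high-fat diet (HFD) from 6 weeks of age for 18 weeks, and then PCN, a synthetic steroid that activates the pregnane X receptor of rodents, by intraperitoneal injection of 50 mg/kg once a day for 4 days. The HFD Vehicle group had the same diet and was injected on the same schedule with 30% DMSO in corn oil. The HFD group had the diet and the Chow group regular chow, each from 6 weeks of age for 18 weeks. No treatment is labelled for either group. All mice were of the same inbred strain and no transgene or deletion is named. No label states outright that the libraries are from different animals, and the p-values therefore refer to variation among libraries, which may be technical in part.

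Glucocorticoids pass into cells and bind the glucocorticoid receptor, which is held in the cytoplasm by chaperones and on binding moves to the nucleus, where it activates or represses genes. In adipose tissue, the enzyme encoded by Hsd11b1 makes active hormone from its inactive form inside the cell, so hormone action depends on local activation as well as on blood levels. Glucocorticoids act on adipocytes to promote their differentiation and change lipid handling, and they dampen inflammation in macrophages. Neither hormone levels nor receptor protein were measured here.

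Levels are counts per gene relative to the size of the library (CPM), scaled over the 12 libraries with TMM factors, and group values are means ± SD with n = 3. Total counts per library ranged from 11090117 to 27408092. Although the series is titled as adipose tissue, its source label reads duodenum. The adipocyte gene Fabp4, a carrier of fatty acids, was at 2797 to 8028 CPM in the 12 libraries. Of the markers of intestinal epithelium, Epcam was at 0.297 CPM or less and Vil1 at 2.82 CPM or less. The 7 of 10 listed intestinal markers found in both tables reached higher sums. These were 17.4 to 27.0 CPM in HFD PCN, 14.7 to 44.9 in HFD Vehicle, 10.3 to 10.5 in HFD and 34.6 to 54.9 in Chow. HFD Vehicle 50 differed from the other 2 libraries of its group. It had 68.8 CPM of Adgre1, which encodes the macrophage surface protein F4/80, against 884 and 889.7 CPM in HFD Vehicle 23 and 55 and 27.9 to 75.6 CPM in Chow. Adgre1 was also lower in HFD PCN 11, at 290 CPM against 749 and 691 CPM in HFD PCN 5 and 27. Mitochondrial ribosomal RNA took 7.49% of the counts in HFD Vehicle 50. Its share was 1.40% to 2.54% in the other 8 libraries of mice on the high-fat diet. In Chow 8, 17 and 19 it was 6.05%, 9.66% and 28.7%. Log2 fold changes that moved by over 1.5 times without HFD Vehicle 50 are also given without it.

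Sequences before the start sites of 8 of the 10 genes were found in RefSeq (GRCm38.p6), and those of 3 are shown, because they hold the palindrome or lie before the metallothionein genes, on which hormone and metals are both known to act. The receptor binds as a dimer to a palindrome, searched here as AGAACA followed, after 3 bases of any kind, by its reverse complement TGTTCT, and to single arms of it (AGAACA on either strand). Metallothionein genes are also induced by zinc through metal response elements, searched on both strands as TGCACNC or TGCGCNC, where N is any base. Capitals mark the matches in the 250 bases before each start, printed 5′ to 3′.
Sgk1, chr10:21993640-21993889, plus strand: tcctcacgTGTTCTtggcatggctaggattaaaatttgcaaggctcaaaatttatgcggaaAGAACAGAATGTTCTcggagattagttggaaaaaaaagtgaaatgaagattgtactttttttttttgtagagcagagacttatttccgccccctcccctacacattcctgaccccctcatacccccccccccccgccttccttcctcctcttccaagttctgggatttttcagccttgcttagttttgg
Mt1, chr8:94178839-94179088, plus strand: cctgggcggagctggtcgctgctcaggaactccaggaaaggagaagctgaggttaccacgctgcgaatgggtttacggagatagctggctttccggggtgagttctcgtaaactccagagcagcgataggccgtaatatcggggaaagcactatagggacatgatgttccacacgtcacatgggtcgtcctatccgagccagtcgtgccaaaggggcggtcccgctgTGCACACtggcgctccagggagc
Mt2, chr8:94172368-94172617, plus strand: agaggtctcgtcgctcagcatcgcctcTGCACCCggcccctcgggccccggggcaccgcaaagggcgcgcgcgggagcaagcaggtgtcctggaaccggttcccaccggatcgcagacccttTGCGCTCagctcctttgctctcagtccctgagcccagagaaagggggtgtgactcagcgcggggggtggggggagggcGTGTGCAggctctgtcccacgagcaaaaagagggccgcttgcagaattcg
The palindrome was found in 3 of 32851 promoter windows of this length (0.00913%), the shown window of Sgk1 among them. Sgk1 has 6 such windows in the table. The shown window holds 3 matches of the arm, 2 of which are the arms of the palindrome, and 16.1% of all windows hold at least 1 arm. In the shown windows Mt2 has 3 matches of the metal response letters and Mt1 has 1. These windows end at RefSeq starts, which differ from the gene starts given below. The Mt1 window ends at 94179088, inside the gene, which starts at 94179082. The Mt2 window ends at 94172617, short of its gene start at 94172664. Bases after the windows were not searched, so the matches are not a full count of metal response elements for either gene. At least 1 match was present in 21.4% of windows and at least 3 in 1.26%. Outside the windows shown, Hsd11b1 has 1 match of the metal response letters, 1 of 3 windows of Tsc22d3 has 1 arm, and 2 other windows of Sgk1 have 1 arm each. These matches describe the letters of the windows and are not evidence of binding.

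The receptor itself was among the steadier transcripts of the tissue. Nr3c1 (ENSMUSG00000024431, GRCm38 chromosome 18, 39410545 to 39491301) was at 184, 207 and 202 CPM in HFD PCN 5, 11 and 27, 183, 194 and 183 CPM in HFD Vehicle 23, 50 and 55, 173, 182 and 190.0 CPM in HFD 4, 30 and 38, and 189, 241 and 199.8 CPM in Chow 8, 17 and 19. No group stood clear of another with which it was compared. The highest library was 1.40-fold above the lowest, and 9.09% of 10897 genes had a smaller range. For HFD against Chow the log2 fold change was -0.25 (SE 0.13, 95% interval -0.55 to 0.05, edgeR adjusted p = 0.127), at 181 ± 8.71 CPM in HFD fat and 210.1 ± 27.5 CPM in Chow fat (SD, n = 3). Without Chow 8 the log2 fold change was -0.31 and passed (adjusted p = 0.0290), and without Chow 17 it was -0.13 (adjusted p = 0.371). Without TMM scaling the means were 188 CPM in HFD fat and 187 CPM in Chow fat, so the sign of this difference depends on the scaling. The interval was -0.30 to 0.47 for HFD PCN against HFD Vehicle, -0.27 to 0.38 for HFD Vehicle against HFD, and -0.10 to 0.36 for HFD PCN against HFD. Among 10896 other genes with a mean of at least 5 CPM, those nearest Nr3c1 were the sialyltransferase gene St3gal4, Kctd20 and Scaf11. Over the 12 libraries their centred log2 CPM differed from that of Nr3c1 by 0.0506, 0.0528 and 0.0539 on average. The median of all 10896 genes was 0.291. Nr3c1 varied little, so other steady genes lie near it by this measure.

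Per kilobase of exon, the metallothionein genes were the most abundant of the 10 transcripts and Hsd11b1 the least abundant in Chow and HFD. The length joins all annotated exons of a gene and can exceed that of its RNA, so this order is approximate. For Mt1 it was 1246 bases in 1 block, the whole locus, and for Mt2 588 bases. Without regard to length, Mt1 was at 191 CPM in Chow and Mt2 at 140 CPM. Mt2 was at 117 CPM per kilobase in HFD and 239 in Chow, and Mt1 at 124 in HFD and 154 in Chow. Zbtb16 was at 23.6 CPM per kilobase in HFD and 132 in Chow, while Nr3c1 was at 23.6 in HFD and 27.3 in Chow. Hsd11b1 was at 4.72 CPM per kilobase in HFD and 15.0 in Chow.

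**Figure D1:**
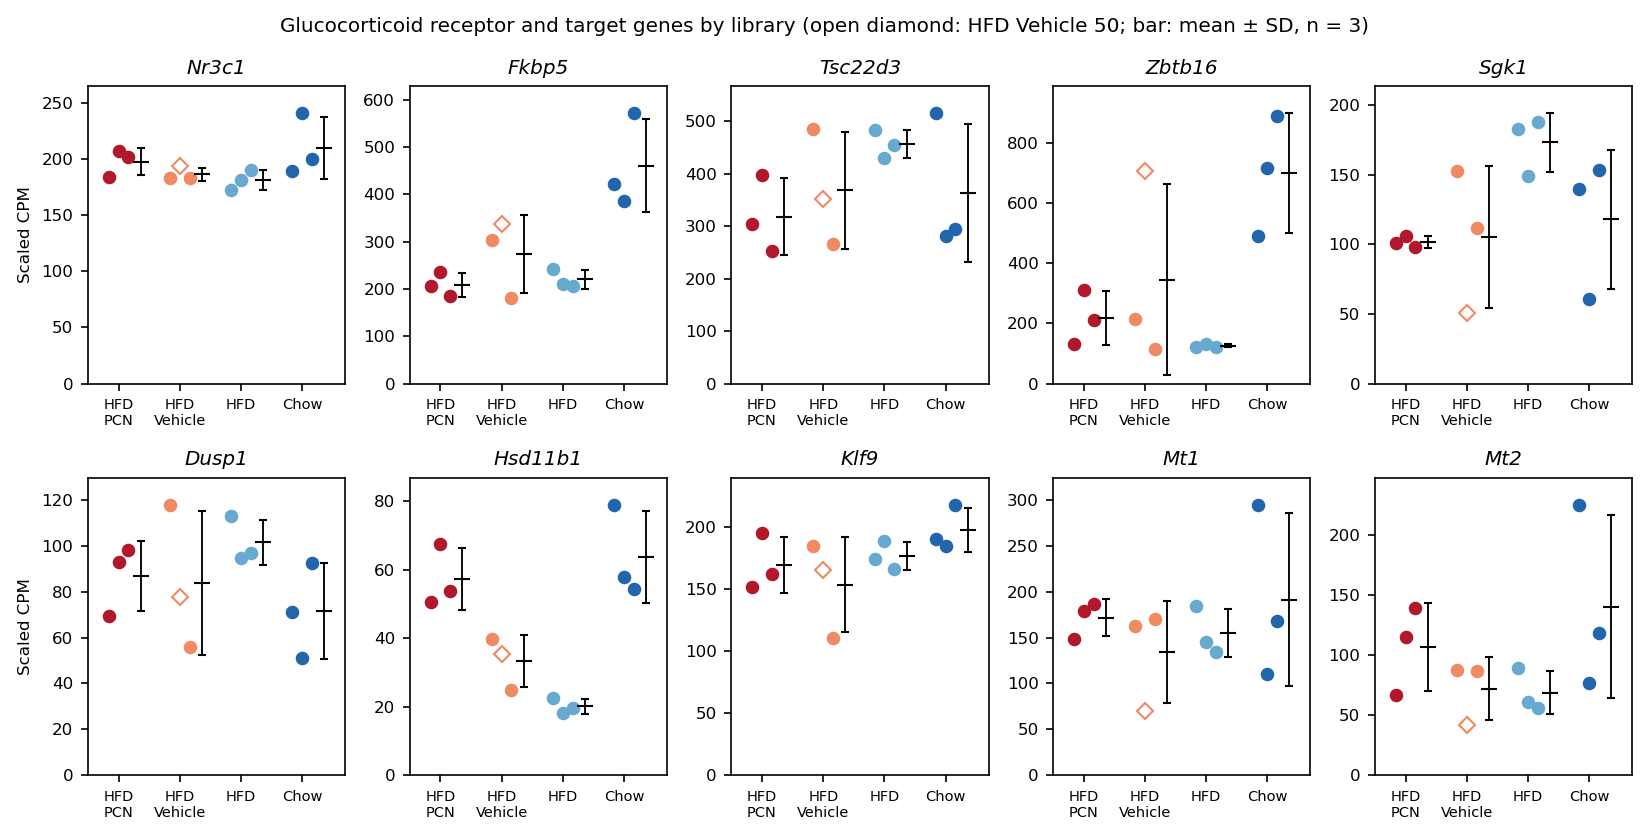
Scaled CPM (vertical axis, from 0) of the 10 genes in each library of HFD PCN, HFD Vehicle, HFD and Chow, with the mean and SD of each group beside the points and HFD Vehicle 50 as an open diamond. Nr3c1 lies between 173 and 241 CPM throughout, while Zbtb16 spans 114 to 889 CPM and reaches 707 CPM in HFD Vehicle 50.

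The first comparison asked what the high-fat diet changed. Of the 10 genes, 4 were lower in HFD and 0 higher at an edgeR adjusted p under 0.05, against 59.8% of all 16216 genes tested (29.8% higher and 30% lower), so the share of changed genes was not above that of the transcriptome. The 4 that fell were Zbtb16, Hsd11b1, Fkbp5 and Mt2. The libraries of HFD and Chow did not overlap in 4 of the 10 genes, 3 lower and 1 higher, against 68.5% of all genes, 32.6% lower and 35.9% higher. At an unadjusted p under 0.05 were 5 of the 10 genes and 64.2% of all genes. The median log2 fold change was -0.29 for the 10 genes and -0.03 for all genes tested. Each library holds RNA of the whole tissue, so fewer cells of a type and less RNA per cell cannot be told apart here or below.

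Hsd11b1 (ENSMUSG00000016194, chromosome 1, 193221634 to 193264075), the activating enzyme, was at 22.5, 18.2 and 19.5 CPM in HFD 4, 30 and 38 and at 79.1, 57.8 and 54.3 CPM in Chow 8, 17 and 19. Every HFD library lay below every Chow library. The gene fell 3.26-fold, a log2 fold change of -1.70 (SE 0.16, 95% interval -2.07 to -1.34, edgeR adjusted p = 6.23e-05). It passed in all 12 alternative analyses, with log2 fold changes of -1.78 to -1.52.

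Zbtb16 (ENSMUSG00000066687, chromosome 9, 48654297 to 48836222) encodes a zinc finger transcription factor that glucocorticoids induce in many cell types. It was at 123, 131 and 121 CPM in HFD 4, 30 and 38 and at 491, 717 and 889 CPM in Chow 8, 17 and 19. HFD libraries lay close together, while Chow libraries were far apart and all higher. Zbtb16 fell 5.75-fold (log2 fold change -2.52, SE 0.22, 95% interval -3.04 to -2.01, edgeR adjusted p = 4.98e-05), the widest difference among the 10 genes in this comparison. It too passed in all 12 alternatives.

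Fkbp5 (ENSMUSG00000024222, chromosome 17, 28399094 to 28517527) encodes a co-chaperone that binds the receptor complex, lowers its affinity for hormone and is itself induced by the receptor. Its levels were 243, 211 and 206 CPM in HFD 4, 30 and 38 and 422, 387 and 572 CPM in Chow 8, 17 and 19, without overlap. It fell 2.15-fold (log2 fold change -1.10, SE 0.17, 95% interval -1.50 to -0.70, edgeR adjusted p = 8.64e-04) and passed in all 12 alternatives. The genes closest to Fkbp5 over the 12 libraries were Trit1, a transfer RNA modifying enzyme, Napepld, an enzyme of N-acylethanolamine synthesis, and Il6ra, a receptor chain for interleukin-6, with mean differences of 0.104, 0.122 and 0.123 on the centred log2 scale. The median over the 10896 genes compared was 0.522. For Zbtb16 the closest were Ptpru, a receptor tyrosine phosphatase, Sik2, a salt-inducible kinase, and Med12l, with mean differences of 0.119, 0.145 and 0.148 against a median of 1.03.

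The metallothioneins bind zinc and copper in the cell, and both genes lie side by side on chromosome 8. Mt2 (ENSMUSG00000031762, 94172664 to 94173568) was at 88.8, 60.7 and 56.1 CPM in HFD 4, 30 and 38 and at 225, 76.9 and 119 CPM in Chow 8, 17 and 19. The groups overlapped, since HFD 4 lay above Chow 17. The log2 fold change was -1.06 (SE 0.36, 95% interval -1.88 to -0.25, edgeR adjusted p = 0.0306). This call was lost in 4 of 12 alternatives, among them leaving out Chow 8 (log2 fold change -0.54, edgeR adjusted p = 0.0790), HFD 30 (adjusted p = 0.0963) or HFD 38 (adjusted p = 0.106). Of the exon bases of Mt2, 73.5% are overlapped by the antisense gene Gm45774, which had 2 to 15 counts per library. The sources used here do not say whether reads were counted by strand, so the level of Mt2 is uncertain to that extent.

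Mt1 (ENSMUSG00000031765, 94179082 to 94180327) was at 185, 146 and 135 CPM in HFD 4, 30 and 38 and at 295, 110.3 and 169 CPM in Chow 8, 17 and 19. Chow libraries lay on either side of all HFD libraries. Its log2 fold change of -0.33 (95% interval -1.05 to 0.38, edgeR adjusted p = 0.378) did not pass, and it was 0.12 without Chow 8. The ratio of Mt2 to Mt1 counts, looked at after their values were seen and given with no test, was 0.450, 0.644 and 0.742 in HFD PCN 5, 11 and 27, 0.541, 0.588 and 0.510 in HFD Vehicle 23, 50 and 55, 0.480, 0.416 and 0.417 in HFD 4, 30 and 38, and 0.763, 0.697 and 0.704 in Chow 8, 17 and 19. It was higher in each Chow library than in each HFD or HFD Vehicle library. HFD PCN 5 lay in the range of HFD, HFD PCN 27 in that of Chow, and HFD PCN 11 between HFD Vehicle and Chow.

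**Figure D2:**
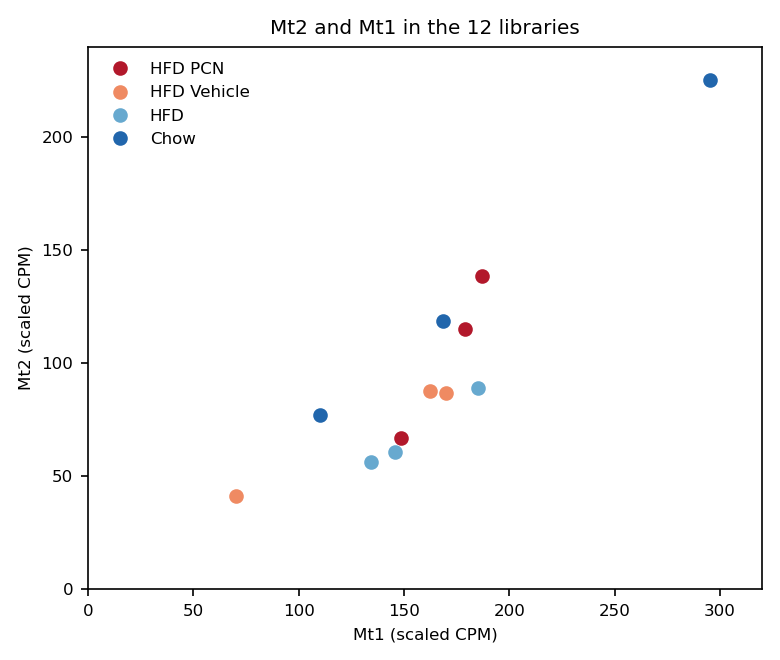
Scaled CPM of Mt2 (vertical axis) against scaled CPM of Mt1 (horizontal axis), 1 point per library, coloured by group. Both are lowest in HFD Vehicle 50 (41.4 and 70.4 CPM) and highest in Chow 8 (225 and 295 CPM), and at like Mt1 the Chow points lie above the HFD points.

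The other 5 targets did not pass. Dusp1, whose phosphatase switches off MAP kinases, was at 113, 94.7 and 96.9 CPM in HFD 4, 30 and 38 and at 71.3, 50.9 and 92.6 CPM in Chow 8, 17 and 19. All HFD libraries lay above all Chow libraries, with HFD 30 just above Chow 19 (log2 fold change 0.47, 95% interval 0.01 to 0.93, edgeR adjusted p = 0.0731). It passed in 3 of 12 alternatives, namely without Chow 19 (log2 fold change 0.72, adjusted p = 0.00832), with no filter (adjusted p = 0.00921) and with DESeq2 (adjusted p = 0.0366), and its log2 fold change was 0.28 without Chow 17. Tsc22d3, which encodes the anti-inflammatory leucine zipper protein GILZ, was at 484, 431 and 456 CPM in HFD 4, 30 and 38 and at 516, 281 and 295 CPM in Chow 8, 17 and 19. Chow 8 was the highest of the 6 and the other Chow libraries the lowest. Without Chow 8 the log2 fold change of Tsc22d3 was 0.63 (edgeR adjusted p = 0.00114), against 0.30 (95% interval -0.22 to 0.81, adjusted p = 0.283) with it, so 1 library decides that call.

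Sgk1, a kinase that regulates ion channels and is a textbook early target of the receptor, was at 183, 149 and 188 CPM in HFD 4, 30 and 38 and at 139.8, 60.8 and 153 CPM in Chow 8, 17 and 19. The groups overlapped through Chow 19 and HFD 30, and the log2 fold change was 0.52 (95% interval -0.17 to 1.21, edgeR adjusted p = 0.163). It was 0.22 without Chow 17 (adjusted p = 0.229), and with no filter it was 0.60 and passed (adjusted p = 0.0223). Klf9, a Kruppel-like transcription factor, was at 175, 189 and 167 CPM in HFD 4, 30 and 38 and at 190.4, 185 and 218 CPM in Chow 8, 17 and 19. These levels lay close together, with a log2 fold change of -0.20 (95% interval -0.47 to 0.07, edgeR adjusted p = 0.173). Without TMM scaling the Klf9 means were 183 CPM in HFD fat and 175 CPM in Chow fat, the opposite order.

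**Figure D3:**
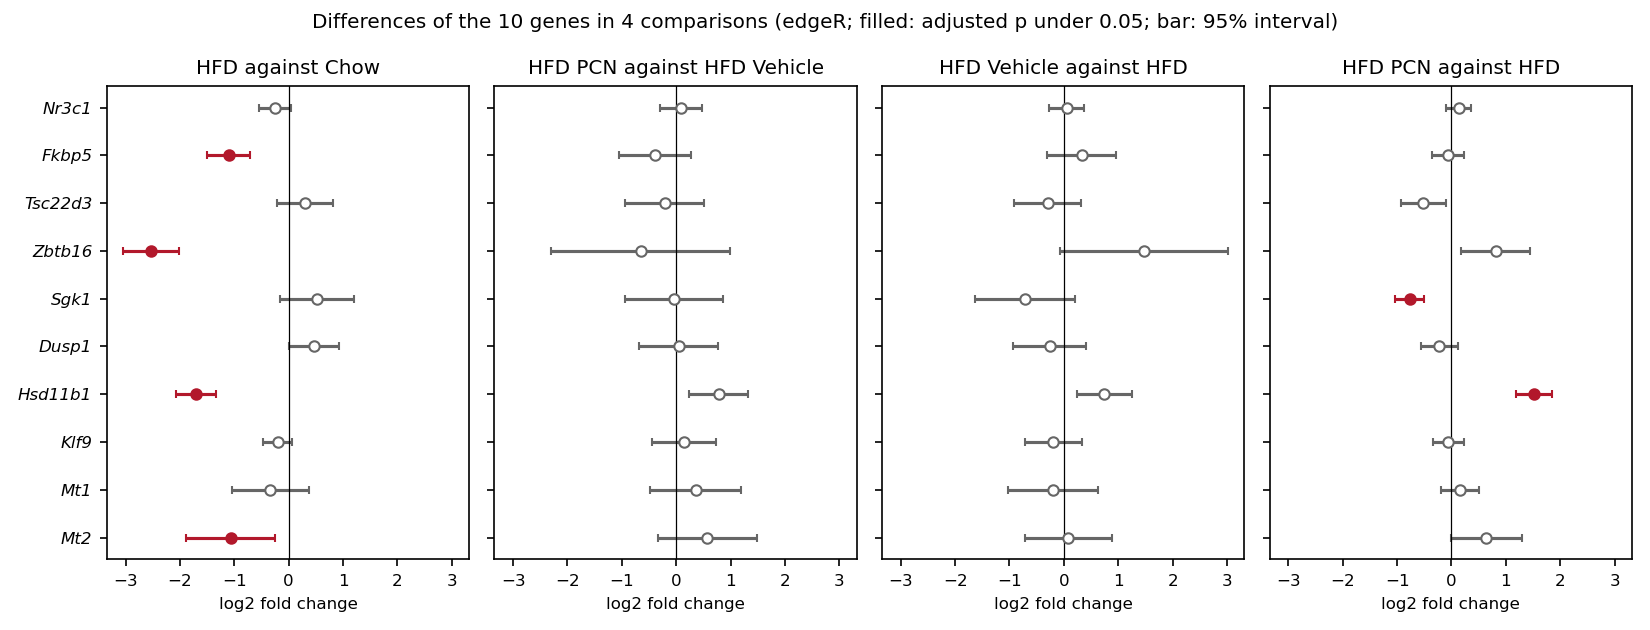
Log2 fold changes (horizontal axis) of the 10 genes in the 4 comparisons from edgeR, with bars for the 95% interval and filled points for an adjusted p under 0.05. Filled points are Fkbp5, Zbtb16, Hsd11b1 and Mt2 for HFD against Chow and Sgk1 and Hsd11b1 for HFD PCN against HFD, and both comparisons of HFD Vehicle have none.

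Genes of the wider pathway are counted here against the 59.8% of all genes tested that passed, 29.8% higher and 30% lower. Of 17 tested genes of receptor machinery (chaperones, coregulators and related steroid receptors), 9 fell and 0 rose. Nrip1, a corepressor of nuclear receptors, was at 121 ± 14.9 CPM in HFD fat and 351 ± 80.7 CPM in Chow fat (edgeR adjusted p = 1.99e-04, SD, n = 3). The mineralocorticoid receptor gene Nr3c2, which binds the same hormones and is named beside the rule for its kinship to Nr3c1, was at 9.70 ± 1.46 CPM in HFD fat and 18.8 ± 1.93 CPM in Chow fat (edgeR adjusted p = 9.66e-04). Of 9 tested genes of corticosteroid metabolism and transport 4 rose and 4 fell. Abcb1a, an efflux pump that carries steroids, was at 14.0 ± 1.19 CPM in HFD fat and 42.3 ± 4.26 CPM in Chow fat. Srd5a3, of the steroid reductase family, was at 32.3 ± 2.09 CPM in HFD fat and 14.5 ± 2.57 CPM in Chow fat, and Cyp11a1, which makes pregnenolone from cholesterol, at 1.87 ± 0.529 CPM in HFD fat and 0.142 ± 0.0860 CPM in Chow fat.

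Of 48 other genes known to be induced by glucocorticoids, 24 fell and 9 rose in HFD, beside 30% lower and 29.8% higher among all genes, with a median log2 fold change of -0.60. Agt, the angiotensinogen gene, was at 15.0 ± 1.63 CPM in HFD fat and 139 ± 15.3 CPM in Chow fat. Foxo1, a transcription factor of the fasting response, was at 33.9 ± 3.05 CPM in HFD fat and 162 ± 8.79 CPM in Chow fat, and Irs2, an insulin receptor substrate, at 42.8 ± 3.59 CPM in HFD fat and 205 ± 24.7 CPM in Chow fat. These 3 passed with edgeR adjusted p of 5.07e-06, 6.47e-06 and 1.06e-05. Of 15 inflammatory genes that glucocorticoids repress, 8 rose and 2 fell, with a median of 1.12. The chemokine genes Ccl2, Ccl3 and Ccl4 led them, at 29.1 ± 3.89, 10.9 ± 1.39 and 4.03 ± 0.244 CPM in HFD fat and at 2.07 ± 0.149, 0.409 ± 0.0983 and 0.180 ± 0.163 CPM in Chow fat.

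Relatives of the members did not share a direction. Of 11 relatives of Fkbp5 among the FK506-binding proteins 6 rose and 1 fell, with Fkbp10, an endoplasmic reticulum isomerase that acts on collagen, at 34.9 ± 0.823 CPM in HFD fat and 12.5 ± 1.38 CPM in Chow fat. Of 16 metallothionein and zinc genes 9 rose and 1 fell. The zinc importer genes Slc39a6 and Slc39a10 were at 47.1 ± 2.11 and 87.6 ± 3.10 CPM in HFD fat and at 13.1 ± 1.59 and 29.7 ± 5.93 CPM in Chow fat, and Mt3 was at 1.99 ± 0.725 CPM in HFD with no count in Chow. Of 10 MAP kinase phosphatases related to Dusp1 3 rose and 3 fell, and Dusp5 was at 11.4 ± 0.908 CPM in HFD fat and 1.46 ± 0.395 CPM in Chow fat. Among 13 Kruppel-like factors 3 rose and 5 fell. Klf15, a factor that glucocorticoids induce, was at 16.1 ± 1.53 CPM in HFD fat and 93.5 ± 30.4 CPM in Chow fat (edgeR adjusted p = 7.14e-05). Of 5 relatives of Sgk1 and Tsc22d3 1 rose and 2 fell, with Tsc22d2 at 78.0 ± 2.83 CPM in HFD fat and 158 ± 45.3 CPM in Chow fat. Of 19 immediate early genes 6 rose and 5 fell, and of 17 clock genes 1 rose and 9 fell, with Nr1d1, a repressor of the clock, at 17.9 ± 3.97 CPM in HFD fat and 106 ± 41.4 CPM in Chow fat. Per1, a clock gene that the receptor induces directly and which is named beside the rule, was at 64.7 ± 6.12 CPM in HFD fat and 208 ± 90.4 CPM in Chow fat (edgeR adjusted p = 0.00101).

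Markers of cell types moved with the diet beside these genes. The summed CPM of the adipocyte list, for 17 of 20 genes in both tables, was 20327 to 23117 in HFD and 38145 to 42586 in Chow. For 20 macrophage markers it was 19257 to 20817 in HFD and 6481 to 9196 in Chow, and for 12 endothelial markers 622 to 631 in HFD and 1803 to 1919 in Chow. Lpl is in both the adipocyte and the macrophage list, and a sum is weighted to its most abundant genes. By gene, the median log2 fold change was 3.21 for the macrophage list and -1.84 for the adipocyte list, beside -0.03 for all genes tested. No marker of these lists was at 0 in all libraries. Their part in the falls of Zbtb16, Hsd11b1, Fkbp5 and Mt2 was not tested, nor was that of the mitochondrial ribosomal RNA share, which was 1.40% to 1.79% in HFD and 6.05% to 28.7% in Chow.

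**Figure D4:**
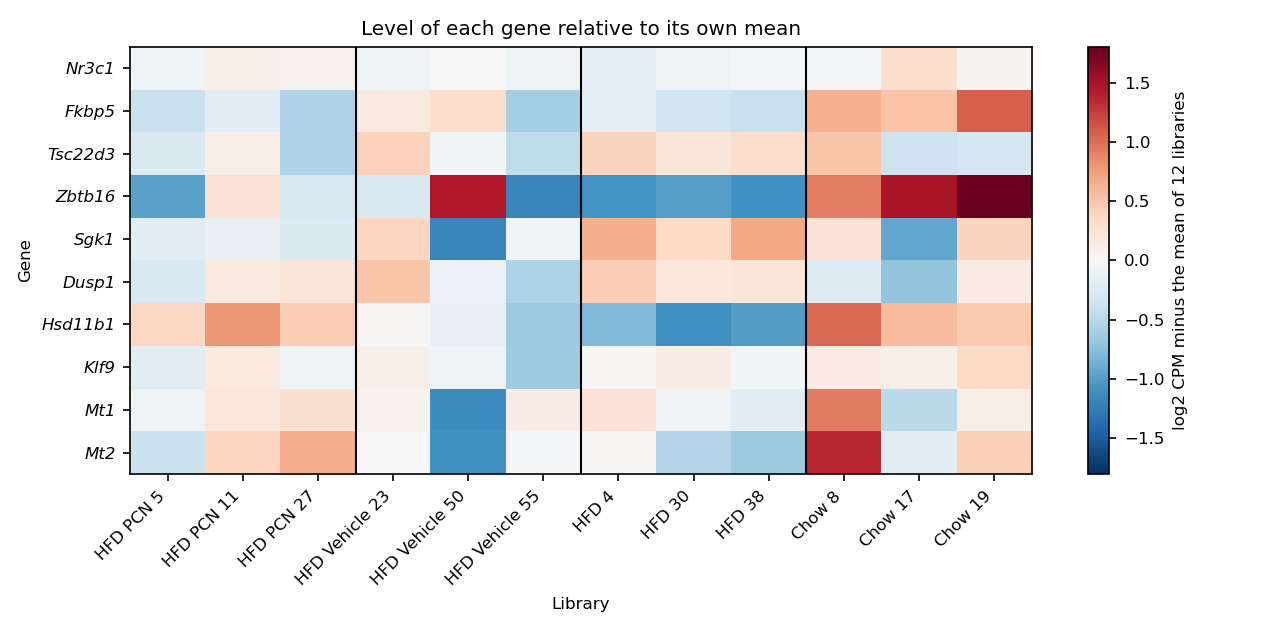
Level of each gene in each library relative to the gene's own mean over the 12 libraries, in log2 CPM, with red for higher and blue for lower and lines between the groups. Zbtb16 is low in HFD and high in HFD Vehicle 50 and Chow, Hsd11b1 is high in HFD PCN and Chow, and the Nr3c1 row is nearly uniform.

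The second comparison asked what PCN changed against its vehicle in obese mice. None of the 10 genes passed with edgeR, and 0% of 16563 genes did, while 281 genes (1.70%) had an unadjusted p under 0.05. With DESeq2 1 gene passed, and 2 genes passed in the authors' deposited table, none of them a member. All edgeR adjusted p of the members were 0.9999. The pregnane X receptor gene Nr1i2 had 1, 1 and 0 counts in HFD PCN 5, 11 and 27 and 5, 0 and 1 counts in HFD Vehicle 23, 50 and 55. Its liver target Cyp3a11 had 13, 9 and 0 counts with PCN and 0, 1 and 0 counts with vehicle.

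Hsd11b1 was at 50.7, 67.7 and 53.7 CPM in HFD PCN 5, 11 and 27 and at 39.8, 35.5 and 24.9 CPM in HFD Vehicle 23, 50 and 55. It was the only one of the 10 genes whose PCN and vehicle libraries did not overlap, against 6.15% of all genes (3.38% higher and 2.77% lower). Its log2 fold change was 0.78 (SE 0.23, 95% interval 0.24 to 1.33, edgeR adjusted p = 0.9999), and it was the 1 gene of the 10 with an unadjusted p under 0.05. The log2 fold change was 0.60 to 0.94 with any library left out. The authors' deposited table gave a log2 fold change of 0.65 with an adjusted p of 1.0 for this gene.

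Zbtb16 was at 133, 311 and 212 CPM in HFD PCN 5, 11 and 27 and at 214, 707 and 114 CPM in HFD Vehicle 23, 50 and 55. HFD Vehicle 50 alone lay in the range of Chow. The log2 fold change was -0.65 (95% interval -2.29 to 0.99) with HFD Vehicle 50 and 0.41 without it, with edgeR adjusted p of 0.9999 and 0.831. Fkbp5 was at 205, 235 and 186 CPM in HFD PCN 5, 11 and 27 and at 303, 338 and 181 CPM in HFD Vehicle 23, 50 and 55, with a log2 fold change of -0.39 (95% interval -1.05 to 0.28). HFD Vehicle 55 was the lowest of these 6, and without HFD Vehicle 50 the log2 fold change was -0.21.

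In the other targets except Mt2 the vehicle libraries had a larger SD than the PCN libraries. Sgk1 was at 101, 106 and 97.9 CPM in HFD PCN 5, 11 and 27 and at 152, 50.9 and 112 CPM in HFD Vehicle 23, 50 and 55. Tsc22d3 was at 305, 398 and 252 CPM in HFD PCN 5, 11 and 27 and at 486, 353 and 266 CPM in HFD Vehicle 23, 50 and 55. Dusp1 was at 69.3, 92.9 and 98.1 CPM in HFD PCN 5, 11 and 27 and at 118, 77.8 and 56.1 CPM in HFD Vehicle 23, 50 and 55. In each of these 3 genes the groups overlapped, and the intervals of the log2 fold change were -0.95 to 0.85, -0.94 to 0.52 and -0.68 to 0.77. Without HFD Vehicle 50 the log2 fold change of Sgk1 was -0.38, against -0.05 with it, and that of Dusp1 was -0.01, against 0.05.

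Klf9 was at 152, 195 and 162 CPM in HFD PCN 5, 11 and 27 and at 185, 166 and 111 CPM in HFD Vehicle 23, 50 and 55 (95% interval of the log2 fold change -0.44 to 0.73). Mt1 was at 149, 179 and 187 CPM in HFD PCN 5, 11 and 27 and at 162, 70.4 and 170.2 CPM in HFD Vehicle 23, 50 and 55, and Mt2 at 66.8, 115 and 139 CPM with PCN and at 87.9, 41.4 and 86.8 CPM with vehicle. The lowest level of both metallothionein genes was that of HFD Vehicle 50. The intervals were -0.47 to 1.18 for Mt1 and -0.34 to 1.48 for Mt2, and without HFD Vehicle 50 the log2 fold changes were 0.04 and 0.29, against 0.36 and 0.57 with it. In the 11 lists of the wider pathway 0 genes passed.

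The third comparison, HFD Vehicle against HFD, shows what the vehicle injections came with. Its libraries of HFD are also those of the first and of the last comparison. None of the 10 genes passed with edgeR, and 0% of 16781 genes did, while 1655 (9.86%) had an unadjusted p under 0.05, DESeq2 called 91 and limma-voom 0. Without HFD Vehicle 50 edgeR called 172. Hsd11b1 was at 39.8, 35.5 and 24.9 CPM in HFD Vehicle 23, 50 and 55 and at 22.5, 18.2 and 19.5 CPM in HFD 4, 30 and 38, again without overlap, against 28.2% of all genes, 13.6% higher and 14.7% lower. Its log2 fold change was 0.75 (SE 0.21, 95% interval 0.24 to 1.25, edgeR adjusted p = 0.486), and 0.69 without HFD Vehicle 50. Zbtb16 had a log2 fold change of 1.48 (95% interval -0.06 to 3.02, edgeR adjusted p = 0.486) and of 0.40 without HFD Vehicle 50. For Sgk1 the log2 fold change was -0.71 (95% interval -1.63 to 0.21), at 105 ± 51.2 CPM in HFD Vehicle and 173 ± 21.1 CPM in HFD, and it was -0.39 without HFD Vehicle 50. The remaining 7 genes had log2 fold changes of -0.30 to 0.33. Without HFD Vehicle 50 those of Fkbp5, Mt1, Mt2 and Nr3c1 were 0.14, 0.10, 0.35 and 0.02, against 0.33, -0.20, 0.08 and 0.05 with it. In the 11 pathway lists 0 genes passed, with 12 of 17 clock genes at an unadjusted p under 0.05 and a median of 0.72 for that list. Arntl, an activator of the clock, was at 12.9 ± 3.82 CPM in HFD Vehicle and 29.8 ± 4.54 CPM in HFD, without overlap (log2 fold change -1.19, 95% interval -1.78 to -0.60).

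The last comparison set HFD PCN against HFD, which differ in the injections as well as in PCN. Of the 10 genes, 1 rose and 1 fell, against 4.54% of all 16927 genes tested, or 3.18% higher and 1.36% lower. Libraries did not overlap in 4 of the 10 genes, 2 higher and 2 lower, against 37.4% of all genes, 18.2% higher and 19.2% lower. At an unadjusted p under 0.05 were 4 of the 10 genes and 29.2% of all genes. The median log2 fold change was 0.04 for the 10 genes and 0.01 for all genes.

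Hsd11b1 rose 2.87-fold, at 57.4 ± 9.06 CPM in HFD PCN and 20.1 ± 2.22 CPM in HFD (SD, n = 3). The log2 fold change was 1.52 (SE 0.14, 95% interval 1.19 to 1.85, edgeR adjusted p = 0.0160). The lowest HFD PCN library, at 50.7 CPM, stood above the highest HFD library, at 22.5 CPM. HFD PCN thus lay in the range of Chow, which was 54.3 to 79.1 CPM, or just under it. By mean level the groups ran upward as HFD, HFD Vehicle, HFD PCN and Chow, and of these neighbours HFD PCN and Chow overlapped while the others did not.

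Sgk1 fell 1.70-fold, at 102 ± 4.11 CPM in HFD PCN and 173 ± 21.1 CPM in HFD. The log2 fold change was -0.76 (SE 0.11, 95% interval -1.03 to -0.50, edgeR adjusted p = 0.0271). HFD PCN libraries lay within 97.9 to 106 CPM and all HFD libraries at 149 CPM or more. Sgk1 in HFD Vehicle, at 50.9 to 152 CPM, reached from below the HFD PCN libraries into the HFD libraries.

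Both calls changed with the setting. They passed in 6 of 11 alternatives each, with log2 fold changes of 1.38 to 1.61 for Hsd11b1 and -0.86 to -0.72 for Sgk1. Neither passed with all 12 libraries in one fit, where the adjusted p was 0.0670 for Hsd11b1 and 0.498 for Sgk1, nor without HFD 4, HFD 30, HFD 38 or HFD PCN 27, with adjusted p of up to 0.104 and 0.145. Without these libraries edgeR called 0, 1, 0 and 4 genes in all, against 768 with all 6, while it called 5178 without HFD PCN 5.

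Zbtb16 and Tsc22d3 were the other genes without overlap. Zbtb16 was at 219 ± 89.6 CPM in HFD PCN and 125 ± 4.94 CPM in HFD, with the nearest libraries at 133 and 131 CPM (log2 fold change 0.81, 95% interval 0.18 to 1.45, edgeR adjusted p = 0.109). Of the 6 fits with 1 library left out, it passed only without HFD PCN 5 (log2 fold change 1.08, edgeR adjusted p = 0.00390). In that fit 5178 genes passed in all. Without HFD PCN 11 the log2 fold change of Zbtb16 was 0.47 (edgeR adjusted p = 0.177). Tsc22d3 was at 318 ± 73.9 CPM in HFD PCN and 457 ± 26.7 CPM in HFD (log2 fold change -0.52, 95% interval -0.93 to -0.11, edgeR adjusted p = 0.112). With 1 library left out, it passed only without HFD PCN 11 (log2 fold change -0.71, edgeR adjusted p = 0.0362). Without HFD PCN 27 its log2 fold change was -0.37 (edgeR adjusted p = 0.241). Both passed with DESeq2. Mt2 was at 107 ± 36.7 CPM in HFD PCN and 68.5 ± 17.7 CPM in HFD (log2 fold change 0.64, edgeR adjusted p = 0.177). With 1 library left out its log2 fold change was 0.41 to 0.90, and it passed only without HFD PCN 5 (edgeR adjusted p = 0.0173). The other 5 genes, Fkbp5 among them at 209 ± 24.9 CPM in HFD PCN and 220.2 ± 19.8 CPM in HFD, had log2 fold changes of -0.22 to 0.15.

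In the wider pathway, 7 of 17 clock genes rose and 2 fell, beside 3.18% higher and 1.36% lower among all genes. Arntl was at 11.0 ± 1.48 CPM in HFD PCN and 29.8 ± 4.54 CPM in HFD, while Per3, a clock repressor, was at 89.9 ± 7.80 CPM in HFD PCN and 37.7 ± 6.66 CPM in HFD. Hlf, an output factor of the clock, was at 8.40 ± 2.82 CPM in HFD PCN and 1.83 ± 0.326 CPM in HFD. For the same 3 genes, the log2 fold changes against HFD were -1.44, 1.26 and 2.18 in HFD PCN and -1.19, 1.63 and 2.21 in HFD Vehicle, and the 95% intervals for HFD PCN against HFD Vehicle were -0.86 to 0.38, -1.40 to 0.67 and -1.52 to 1.51. The sources used here do not state the hour of tissue collection, and a difference in it cannot be told apart from the injections or PCN. Of 48 other induced genes 3 rose and 1 fell. Pck1, an enzyme of glucose and glycerol synthesis, was at 659.6 ± 295 CPM in HFD PCN and 152 ± 39.1 CPM in HFD, Irs2 at 125 ± 47.6 CPM in HFD PCN and 42.8 ± 3.59 CPM in HFD, and Pdk4, a brake on glucose oxidation, at 279 ± 8.51 CPM in HFD PCN and 199.8 ± 4.02 CPM in HFD.

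Of 10 genes of corticosteroid metabolism and transport 1 rose and 2 fell. Mc2r, the receptor for adrenocorticotropic hormone, which mouse adipocytes also express, was at 18.8 ± 4.46 CPM in HFD PCN and 7.06 ± 0.750 CPM in HFD, higher by 1.42 on the log2 scale (SE 0.19, edgeR adjusted p = 0.0233). Cyp11a1 was at 0.560 ± 0.206 CPM in HFD PCN and 1.87 ± 0.529 CPM in HFD, and Abcc1, an efflux pump that carries corticosterone, at 108 ± 5.44 CPM in HFD PCN and 152 ± 11.9 CPM in HFD. The MAP kinase phosphatase genes Dusp9 and Dusp10 rose, at 28.4 ± 0.770 and 42.4 ± 10.1 CPM in HFD PCN and at 13.2 ± 0.846 and 18.8 ± 1.09 CPM in HFD, 2 of 10 tested. Klf7 and Klf14 were the 2 of 13 Kruppel-like factors that rose. In the zinc, immediate early and inflammatory lists 1 gene each rose, namely Slc39a13, Nr4a2 and Cxcl1, while in the lists of receptor machinery and of relatives of Fkbp5, Sgk1 and Tsc22d3 0 genes passed.

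Markers moved in this comparison too. Summed CPM of the macrophage list was 9725 to 16044 in HFD PCN, 5877 to 19083 in HFD Vehicle and 19257 to 20817 in HFD. This list shares Lpl with the adipocyte list. For the endothelial list it was 801 to 1387 in HFD PCN, 779 to 2174 in HFD Vehicle and 622 to 631 in HFD, and for 11 mesothelial markers 71.5 to 145 in HFD PCN, 11.9 to 89.9 in HFD Vehicle and 8.48 to 40.4 in HFD. The adipocyte list summed to 19112 to 29833 in HFD PCN, 18280 to 28749 in HFD Vehicle and 20327 to 23117 in HFD, so its ranges overlapped. By gene, 3 of 16 tested adipocyte genes rose and 0 fell in HFD PCN against HFD. The median log2 fold change was 0.66 for the adipocyte list, -0.68 for the macrophage list and 0.01 for all genes tested. Pck1, named above among the induced genes, is also in the adipocyte list. Markers of adipose progenitors summed to 3247 to 4862 CPM in HFD PCN, 2324 to 4479 in HFD Vehicle, 4446 to 5287 in HFD and 1369 to 2283 in Chow. The lists of T and NK cells, skeletal muscle and intestinal epithelium summed to at most 28.2, 69.7 and 54.9 CPM in any library. The part of these cell types in the values of Hsd11b1 and Sgk1 was not tested.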

How the data were processed

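Gene counts of 12 libraries in 4 groups of 3 were analysed. The authors deposited 2 tables, one for HFD and Chow and one for HFD PCN and HFD Vehicle, holding raw read counts per gene as whole numbers, and with their own log2 fold changes and adjusted p-values. The tools named, per the submitters' processing notes, are HISAT2, HTSeq and DESeq2, with the build GRCm38 (mm10), and versions are not given in the sources used here. RNA was DNase-treated and extracted with a kit for lipid tissue, per the labels' protocols. Groups come from the sample descriptions in the labels.

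The quasi-likelihood test in edgeR 4.0.16 (R 4.3.3) was applied to the counts (TMM scaling, the default filter on low counts, Benjamini-Hochberg adjustment at 0.05 over all genes), each comparison on its own 6 libraries. HFD Vehicle or HFD PCN against HFD used the 28008 genes in both tables. All 10 members passed the filter in the 4 comparisons. Standard errors and 95% intervals follow from the quasi-likelihood statistic and its degrees of freedom. Depth was 11090117 to 27408092 counts per library. Exon lengths and overlaps came from the GENCODE annotation of GRCm38. The test was checked on simulated data, with few genes changed, none of low level, and equal spread in both groups. In this setting, which may differ from that of the libraries, it found most 2-fold changes in HFD against Chow and HFD PCN against HFD. It found few in the comparisons with HFD Vehicle. A gene that did not pass there may therefore still differ.

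The members and the 19 gene lists (11 of pathways, 8 of cell types) were chosen with earlier results of these data known. Named beside the members were, per list and comparison, up to 3 passing genes with the smallest p, the 3 genes most like Nr3c1, Fkbp5 and Zbtb16 over the 12 libraries (mean absolute difference of centred log2 CPM, with an offset of 0.5 CPM, among genes with a mean of at least 5 CPM, predicted genes left out), and fixed cell type markers. Where 3 genes of a list passed the rule, the text names those that help to describe it. Some genes that meet the rule are not reported here. Alternatives were DESeq2 1.42.0, limma-voom (limma 3.58.1), size factors of DESeq2, no filter, all 12 libraries in one fit, the authors' deposited values and leaving out each library in turn. With 3 libraries per group an exact permutation test of a single gene cannot go below p = 0.1, and none was used.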

Additional observations from a re-analysis of the deposited data

How the results depend on the processing

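When libraries were left out 1 at a time, the genes called by edgeR numbered 7953 to 10889 genes in HFD against Chow, 0 to 172 in HFD Vehicle against HFD and 0 to 5178 in HFD PCN against HFD, against 9699, 0 and 768 with all, and 0 to 4 of the 10 genes in the last, against 2. In HFD PCN against HFD the number of genes called was 1296 with no filter, 2410 with DESeq2, 506 with limma-voom and 0 with all 12 libraries in one fit, and DESeq2 called 4 of the 10 genes and the fit of all 12 libraries 0. DESeq2 called 91 genes in HFD Vehicle against HFD. For HFD PCN against HFD Vehicle DESeq2 called 1 gene, and 2 passed in the authors' deposited table. In HFD against Chow 3 to 6 of the 10 genes passed under the alternatives. The cause of these differences was not tested.

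None of the called members changed its direction under these alternatives. Among log2 fold changes that had not passed, signs turned when 1 library was left out, with ranges of -0.60 to 0.12 for Mt1 in HFD against Chow. In HFD PCN against HFD Vehicle they were -0.41 to 0.055 for Tsc22d3, -1.09 to 0.41 for Zbtb16, -0.38 to 0.33 for Sgk1, -0.18 to 0.39 for Dusp1 and -0.057 to 0.31 for Klf9, and Sgk1 was at 0.14 with limma-voom. In HFD Vehicle against HFD they were -0.40 to 0.10 for Mt1 and -0.092 to 0.35 for Mt2, and in HFD PCN against HFD -0.17 to 0.0051 for Fkbp5 and -0.17 to 0.026 for Klf9. Without TMM scaling mean levels moved by more than 1 SD for Nr3c1 (211 CPM) and Sgk1 (109 CPM) in HFD PCN and for Klf9 (175 CPM) in Chow. No paired analysis was possible because the groups share no replicate numbers.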
